A study of Homo sapiens with 9 samples.

Results

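The genes described here are 10 core genes of the G1 phase of the cell cycle, chosen by symbol from the 59648 genes of the count tables: the cyclins CCND1, CCND2, CCND3, CCNE1 and CCNE2, the cyclin-dependent kinases CDK2, CDK4 and CDK6, and the inhibitors CDKN1B and CDKN2C. CDKN1A, a CIP/KIP inhibitor often set beside them, was left out because it is a p53 target. All 10 were in every table, and 9 passed the filter on low counts. CCND1 did not. The RNA came from Kasumi-1, an established human cell line from acute myeloid leukaemia with the t(8;21) translocation, which makes the fusion protein AML1-ETO (AE, also called RUNX1-RUNX1T1). There were 3 libraries with AE knockdown (AE shRNAs labelled 1, 2 and 3), 3 with LYL1 knockdown (LYL1 shRNAs labelled 538, 540 and 542) and 3 with a control shRNA. In every group the shRNA came from a lentivirus, the transduction lasted 48 h, 1 µg/mL puromycin followed for 48 h, and RNA was taken on day 4. All libraries are of a single cell line. Whether AE shRNAs 1, 2 and 3 are distinct constructs, and whether replicate libraries were separate cultures, is not in the labels, so p-values here reflect the spread between these samples alone.

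D-type cyclins activate CDK4 and CDK6, and E-type cyclins activate CDK2. Both kinase pairs phosphorylate RB and its relatives, which frees E2F factors to switch on the genes of S phase. INK4 proteins such as p18 (CDKN2C) block CDK4 and CDK6, while p27 (CDKN1B) blocks mainly cyclin E with CDK2. Blood cells use CCND2, CCND3 and CDK6 in particular. LYL1 is a basic helix-loop-helix factor of early blood cells.

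Promoter windows from RefSeq (GRCh38.p14, 250 bases before to 50 after an annotated start) were at hand for 6 of the genes, with 11 windows in all. These genes were CCND3, CCNE1, CDK4, CDK6, CDKN1B and CDKN2C, some with several windows. CCND1, CCND2, CCNE2 and CDK2 had no window at hand. The 2 CCND3 windows below are printed because CCND3 was the member that rose with AE knockdown, and both hold several GC boxes (GGGCGG on either strand), the letters bound by SP1-type factors. They lie on the minus strand at chr6:42048639-42048938 (upstream start) and chr6:41941759-41942058 (middle start), and capitals mark the GC boxes, 5 in the upstream and 4 in the middle window.
CCND3 upstream start: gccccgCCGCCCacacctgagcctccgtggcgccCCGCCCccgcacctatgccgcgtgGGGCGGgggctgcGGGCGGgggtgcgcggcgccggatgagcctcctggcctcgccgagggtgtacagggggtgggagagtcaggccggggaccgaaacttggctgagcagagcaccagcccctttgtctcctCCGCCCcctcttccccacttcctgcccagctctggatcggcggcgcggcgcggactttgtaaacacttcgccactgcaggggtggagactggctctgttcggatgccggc
CCND3 middle start: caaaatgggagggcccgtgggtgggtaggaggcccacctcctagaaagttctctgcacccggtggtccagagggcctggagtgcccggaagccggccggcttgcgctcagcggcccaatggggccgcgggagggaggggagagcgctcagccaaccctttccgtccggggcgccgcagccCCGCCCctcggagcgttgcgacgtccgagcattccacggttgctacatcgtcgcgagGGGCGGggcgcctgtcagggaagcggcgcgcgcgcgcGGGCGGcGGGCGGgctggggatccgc
The other CCND3 window, at chr6:41939156-41939455, held no GC box. The gene counts do not tell these starts apart. The CDK4 window, on the minus strand at chr12:57752261-57752560, is printed because it held 3 copies of the palindromic E-box CACGTG, a motif of basic helix-loop-helix factors such as MYC with MAX. Capitals mark the E-boxes.
CDK4: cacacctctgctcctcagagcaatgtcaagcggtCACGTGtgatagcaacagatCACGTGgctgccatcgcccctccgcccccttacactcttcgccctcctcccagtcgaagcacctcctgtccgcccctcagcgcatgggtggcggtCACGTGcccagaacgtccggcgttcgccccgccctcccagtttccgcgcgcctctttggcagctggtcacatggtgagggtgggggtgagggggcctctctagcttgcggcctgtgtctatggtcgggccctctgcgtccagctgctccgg
A GC box stood in 8 of the 11 member windows and CACGTG in 4, against 45.0% and 7.26% of all 35116 windows of this length. The RUNX core letters TGTGGT or TGCGGT stood in 0 of the 11 and in 19.6% of all windows, and the E2F letters TTTCCCGC, TTTCGCGC, TTTGCCGC or TTTGGCGC in 0 of the 11 and in 3.31% of all. Both strands were read, an E2F match can overlap a GC box, and these are matches of letters only. They do not cover CCND2 or the other genes without a window.

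Library totals ranged from 22764565 to 28039518 counts with AE knockdown, from 20103275 to 25372150 with LYL1 knockdown and from 23893891 to 26339032 in the controls. Levels are given as CPM, the count per scaled library total. The libraries with AE knockdown were less alike than the others. On the first principal component of log2 CPM (56.5% of the variance) they lay at 46.1, 29.7 and 102, against -37.6 to -23.2 with LYL1 knockdown and -31.2 to -30.1 in the controls, so that AE knockdown replicate 3 stood apart. RUNX1T1, which encodes ETO, lay at 114, 136 and 87.7 CPM with AE knockdown, at 183, 201 and 262 CPM with LYL1 knockdown, and at 216, 223 and 212 CPM in the controls (AE knockdown against control -0.94 on the log2 scale, SE 0.18, edgeR adjusted p = 0.00820). RUNX1 reads, from both the fusion and the intact allele, gave 241, 232 and 199 CPM with AE knockdown and 391, 383 and 367 CPM in the controls (-0.76, adjusted p = 0.0129), a call lost without control replicate 1 or 2 (adjusted p up to 0.0558). LYL1 lay at 80.4, 98.4 and 43.9 CPM with its own knockdown (log2 fold change -1.13, SE 0.26, edgeR adjusted p = 0.630), against 172, 172 and 143 CPM in the controls, so its label rests on levels that do not overlap and not on a call. Of the 5 myeloid blast genes, MPO lay between 11428 and 32494 CPM and KIT between 434 and 1369 CPM over the 9 libraries. CD33 lay between 27.8 and 174 CPM. CD34 and CD38 reached only 53.2 and 21.3 CPM, with lows of 1.14 and 1.39 CPM. HBA1 was at 0 counts in each library, and HBB had at most 1 count. Of 8 markers of mature granulocytes and monocytes, 6 were tested and 5 rose with AE knockdown, where 11.1% of all genes tested were called higher. CSF3R was the tested marker that did not rise (-0.08, edgeR adjusted p = 0.804). Of the 5, S100A8 and ITGAM passed the filter on low counts only through the AE knockdown libraries, where they were high, so the count is partly set by the filter. For S100A9, also among the 5, the groups overlapped. The count of 5 fell to 2, 0 and 1 without control replicate 1, 2 or 3. The summed level of the 8 markers was 877, 949 and 1635 CPM with AE knockdown, 483, 689 and 864 CPM with LYL1 knockdown and 752 to 891 CPM in the controls. In the controls CSF3R alone averaged 751 CPM. CD14 and FCGR3B, defining genes of monocytes and neutrophils, were at 0 to 4 and at 0 counts. Of the other marker lists, 1 of 5 myeloid blast genes rose (CD33) and 1 of 3 tested T and B cell genes fell (CD3D). Over all genes tested, 11.1% were called higher and 10.2% lower. CD3D lay at 0.250 to 0.625 CPM with AE knockdown and 3.40 to 5.39 CPM in the controls. It passed the filter on low counts through the libraries outside AE knockdown, where it was higher, so its call is not used as support. The 1 stroma or epithelium gene tested gave no call. In bulk RNA, a change in the mix of cells and a change in RNA per cell cannot be told apart.

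AE knockdown against control asks which of these genes depend on the fusion. The D-type cyclins moved in opposite directions. CCND2, the cyclin at the higher level in the controls, fell 2.13-fold, and CCND3 rose 2.67-fold. CCND2 and CCND3 were 2 of 9 members tested, 1 lower and 1 higher, with edgeR's adjusted p below 0.05, where 21.3% of all 14741 genes tested were called (11.1% higher and 10.2% lower). At an unadjusted p below 0.05 there were 3 members, CCNE1 being the other, and 36.8% of all genes tested. The median log2 fold change of the 9 was -0.30, against 0.05 over all genes tested. A count of 2 in 9 is near that background share.

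CCND2 lay at 52.9, 77.6 and 36.7 CPM with AE knockdown and at 119, 118 and 119 CPM in the controls. Every library with AE knockdown lay below every control, at 44.6%, 65.4% and 30.9% of the control mean, and the controls were nearly identical. The group means were 55.7 ± 20.6 CPM with AE knockdown and 119 ± 0.433 CPM in the controls (SD, n = 3 each), with a log2 fold change of -1.09 (SE 0.23, edgeR adjusted p = 0.0102). The call was kept when any single library was left out, with log2 fold changes from -1.41 (without AE knockdown replicate 2) to -0.87 (without AE knockdown replicate 3).

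CCND3 lay at 14.6, 16.5 and 38.5 CPM with AE knockdown and at 8.66, 9.50 and 7.81 CPM in the controls. All libraries with AE knockdown were above all controls, and replicate 3, the library that stood apart, was far above the others. The means were 23.2 ± 13.3 CPM with AE knockdown and 8.66 ± 0.843 CPM in the controls (SD, n = 3 each), giving a log2 fold change of 1.42 (SE 0.34, edgeR adjusted p = 0.0173). Without AE knockdown replicate 3 it was 0.83 (adjusted p = 0.0218). The call was lost without control replicate 1, 2 or 3 (adjusted p = 0.0678, 0.0618 and 0.0753). The mature myeloid markers above were also highest in AE knockdown replicate 3, and their part in the CCND3 result was not tested.

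CCND1, the D-type cyclin of many solid tissues, was close to absent. It had 3, 3 and 2 counts with AE knockdown, 4, 3 and 5 counts with LYL1 knockdown and 13, 11 and 1 counts in the controls. The groups overlapped in both comparisons with control, and without the low-count filter the log2 fold change with AE knockdown was -1.65 (SE 0.82, edgeR adjusted p = 0.212). Each member's values are in the plot of normalised counts by library.

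**Figure D1:**
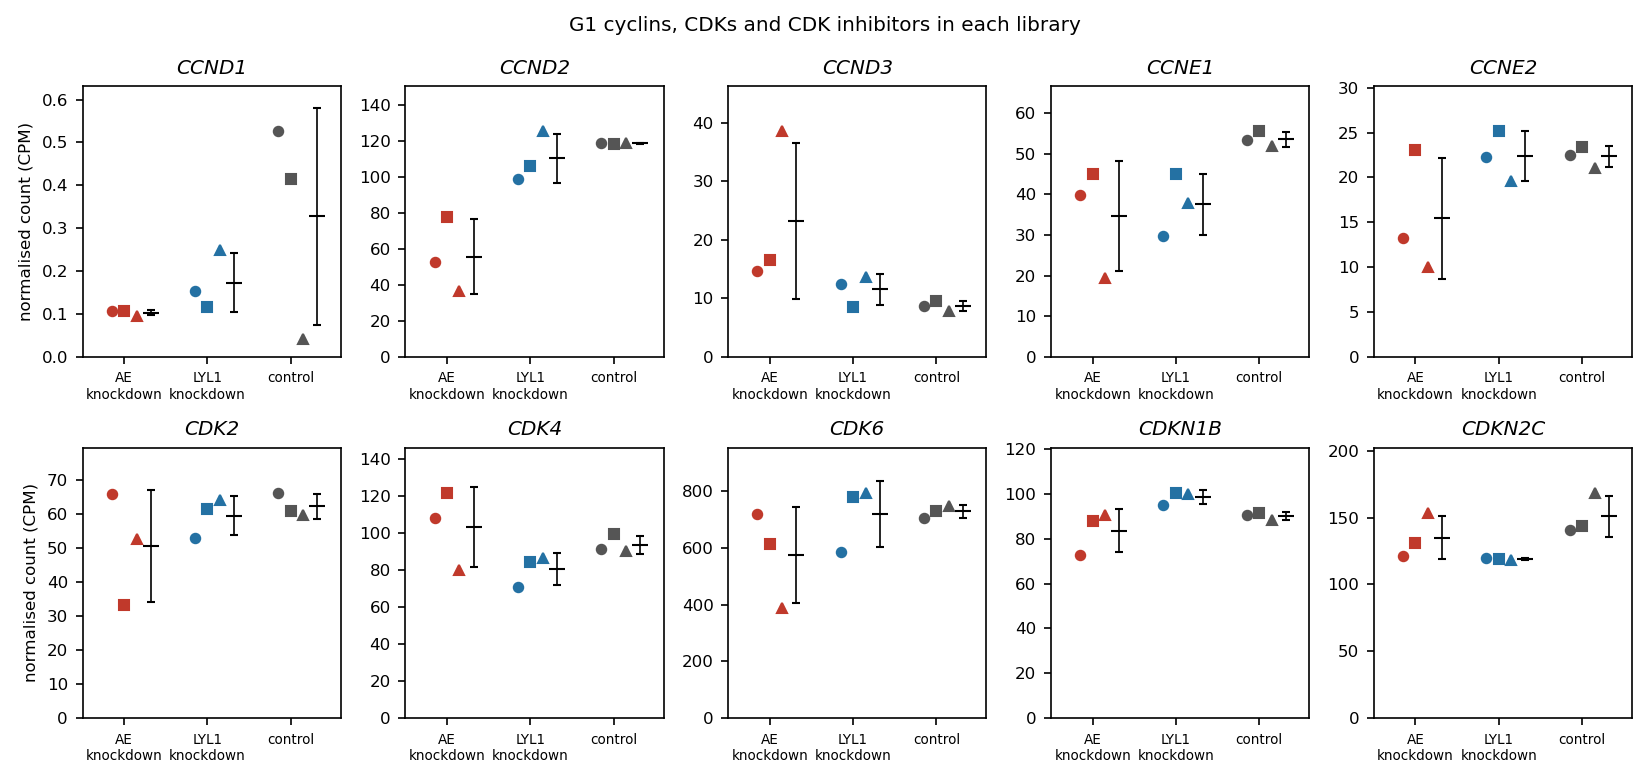
Normalised count (CPM, linear axis from 0) of the 10 genes in each library of the AE knockdown, LYL1 knockdown and control groups, with the mean and SD of 3 libraries at the right of each group; circle, square and triangle are replicates 1, 2 and 3 (538, 540 and 542 for LYL1). CCND2 lay between 36.7 and 77.6 CPM with AE knockdown and at 118 to 119 CPM in the controls, while CCND3 lay between 14.6 and 38.5 CPM with AE knockdown and between 7.81 and 9.50 CPM in the controls.

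The ratio of CCND2 to CCND3 within a library does not depend on how libraries were scaled. There were 3.62, 4.72 and 0.951 CCND2 reads per CCND3 read with AE knockdown, 7.99, 12.4 and 9.24 with LYL1 knockdown, and 13.7, 12.4 and 15.2 in the controls. In AE knockdown replicate 3 the 2 cyclins thus had about as many reads as each other, while CCND2 led in every other library. The mean log2 ratio was 1.34 ± 1.24 with AE knockdown and 3.78 ± 0.146 in the controls (SD, n = 3 each), a difference of -2.44 (-1.73 without AE knockdown replicate 3). An exact two-sided permutation test over the libraries gave p = 0.1, the smallest that 3 against 3 allow. With LYL1 knockdown the mean was 3.28 ± 0.324 and the difference from the controls -0.50 (exact permutation p = 0.1), and its highest library, 540, lay just under the lowest control.

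**Figure D2:**
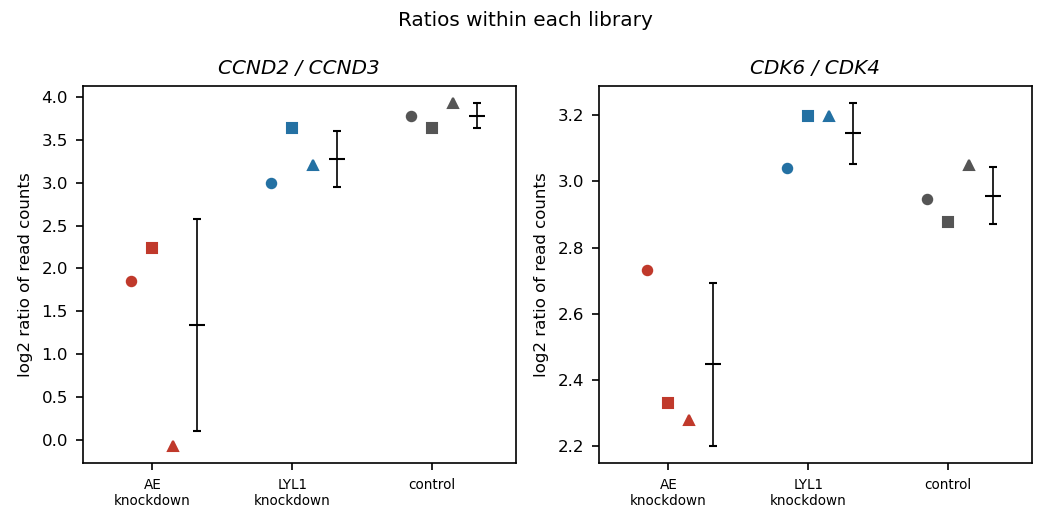
Log2 ratio of read counts within each library for CCND2 to CCND3 (left) and CDK6 to CDK4 (right), by group, with the mean and SD of 3 libraries at the right of each group; the axes do not start at 0. The CCND2 to CCND3 ratio was 1.86, 2.24 and -0.07 with AE knockdown, against 3.63 to 3.93 in the controls.

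The E-type cyclins were lower on average with AE knockdown, but neither passed the test. CCNE1 lay at 39.8, 44.9 and 19.4 CPM with AE knockdown and at 53.3, 55.6 and 51.8 CPM in the controls. No library with AE knockdown reached the lowest control, with a log2 fold change of -0.62 (SE 0.26, edgeR adjusted p = 0.112). Without the low-count filter, in limma-voom or without AE knockdown replicate 2, CCNE1 did pass (adjusted p = 0.00558, 0.0488 and 0.0444), and without AE knockdown replicate 3 its value was -0.35 (adjusted p = 0.168). CCNE2 lay at 13.2, 23.0 and 10.1 CPM with AE knockdown and at 22.5, 23.4 and 21.1 CPM in the controls. Replicate 2 lay among the controls and the other libraries well below them, so the groups overlapped (log2 fold change -0.53, SE 0.26, edgeR adjusted p = 0.159). Without AE knockdown replicate 2 the CCNE2 value was -0.94 (adjusted p = 0.00647), and without replicate 3 it was -0.31 (adjusted p = 0.349). CCNE1, CCND2 and CCND3 were the 3 members whose AE knockdown and control libraries did not overlap, where 45.2% of all genes tested did not.

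The kinases did not pass the test. CDK6, the most abundant member, lay at 719, 614 and 389 CPM with AE knockdown and at 705, 731 and 748 CPM in the controls (log2 fold change -0.34, SE 0.22, edgeR adjusted p = 0.271). Replicate 3 was far below the controls, replicate 2 below and replicate 1 among them. CDK4, which shares its cyclins, lay at 108, 122 and 80.1 CPM with AE knockdown and at 91.5, 99.6 and 90.4 CPM in the controls (0.14, SE 0.16, adjusted p = 0.556). Within a library, CDK6 had 6.64, 5.03 and 4.86 reads per CDK4 read with AE knockdown and 7.71, 7.34 and 8.27 in the controls. All the AE knockdown ratios were below all the controls, with mean log2 ratios of 2.45 ± 0.247 and 2.96 ± 0.0864 (SD, n = 3 each) and an exact permutation p of 0.1. The difference was -0.51, or -0.43 without AE knockdown replicate 3. CDK2, the partner of the E-type cyclins, lay at 65.9, 33.2 and 52.7 CPM with AE knockdown and at 66.2, 60.7 and 59.5 CPM in the controls (-0.30, SE 0.21, adjusted p = 0.330). AE knockdown replicates 2 and 3 lay below every control for both CDK2 and CDK6. Replicate 2 was the lowest for CDK2 and replicate 3 for CDK6.

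The inhibitors did not pass the test either. CDKN1B lay at 72.6, 87.8 and 90.3 CPM with AE knockdown and at 90.5, 91.4 and 88.1 CPM in the controls (log2 fold change -0.11, SE 0.12, edgeR adjusted p = 0.555). CDKN2C lay at 122, 131 and 153 CPM with AE knockdown and at 141, 144 and 169 CPM in the controls (-0.16, SE 0.13, adjusted p = 0.403). The groups overlapped for both, and their standard errors were the smallest of the 9 members tested.

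**Figure D3:**
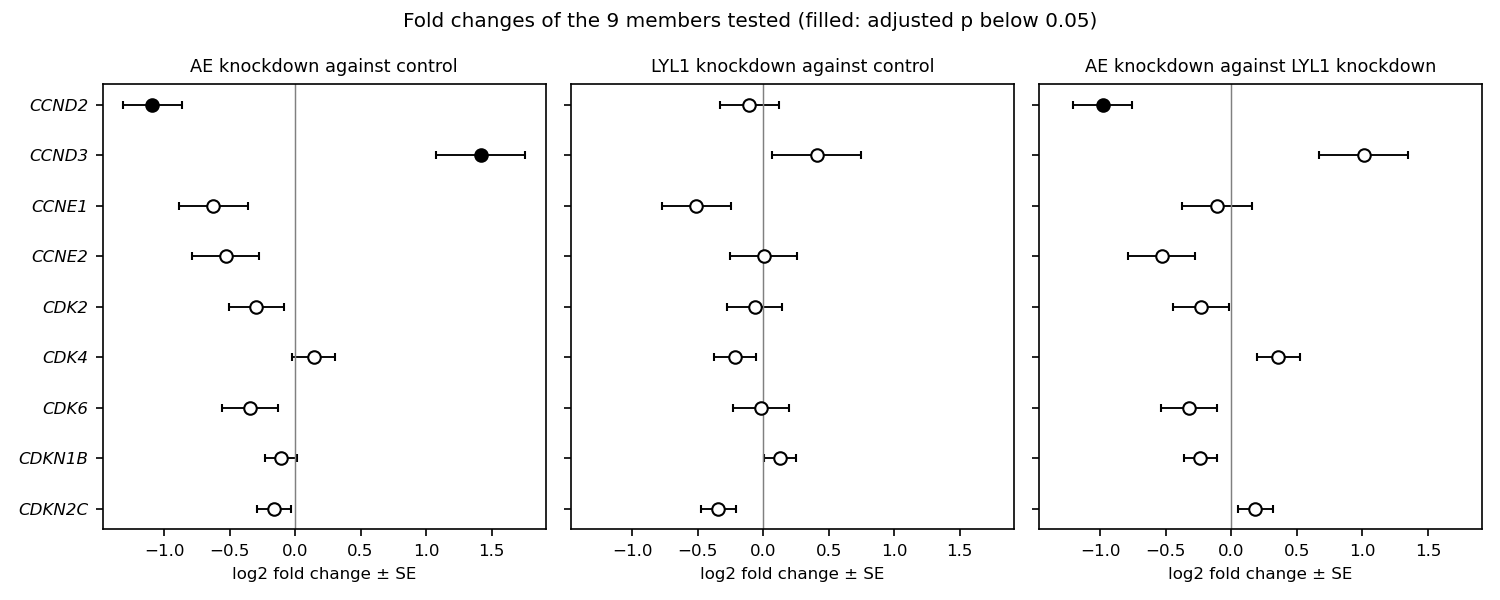
Log2 fold change with its SE (edgeR) of the 9 members tested, for AE knockdown against control (left), LYL1 knockdown against control (middle) and AE knockdown against LYL1 knockdown (right); filled circles have an adjusted p below 0.05. CCND2 (-1.09) and CCND3 (1.42) were filled in the left panel, none in the middle panel, and CCND2 (-0.98) in the right panel.

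LYL1 knockdown against control asks the same of LYL1, and no member was called. edgeR, DESeq2 and limma-voom each called 0 of the 9 members, and 1 of them, CDKN2C, had an unadjusted p below 0.05. Over all genes tested edgeR called 2, or 0.0136%, of which 1 was higher and 1 lower (0.00678% each), and 4.66% had an unadjusted p below 0.05. The median log2 fold change of the members was -0.06, against 0.01 over all genes. In 4 of the 9 members the LYL1 knockdown and control libraries did not overlap, CDKN1B above and CCNE1, CDK4 and CDKN2C below the controls, where 16.6% of all genes did not overlap (8.41% above and 8.17% below).

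CDKN2C, the CDK4 and CDK6 inhibitor p18, lay at 120, 119 and 118 CPM with LYL1 knockdown and at 141, 144 and 169 CPM in the controls. The 3 shRNAs gave nearly the same level, which was below each control (log2 fold change -0.34, SE 0.13, edgeR adjusted p = 1.00). Its unadjusted p in edgeR's model over all genes was 0.0258. CCNE1 lay at 29.8, 44.9 and 37.9 CPM with LYL1 knockdown and at 53.3, 55.6 and 51.8 CPM in the controls (-0.51, SE 0.26, adjusted p = 1.00). CCNE1 thus averaged 34.7 ± 13.5 CPM with AE knockdown, 37.5 ± 7.56 CPM with LYL1 knockdown and 53.5 ± 1.90 CPM in the controls that both comparisons share (SD, n = 3 each). CDK4 lay at 71.0, 84.7 and 86.6 CPM with LYL1 knockdown and at 91.5, 99.6 and 90.4 CPM in the controls (-0.22, SE 0.16). No LYL1 knockdown library reached a control for CCNE1 or CDK4, while for CDKN1B all were above. CDKN1B lay at 95.0, 100 and 99.9 CPM with LYL1 knockdown and at 90.5, 91.4 and 88.1 CPM in the controls (0.13, SE 0.12).

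CCND2 lay at 99.1, 106 and 125 CPM with LYL1 knockdown, on both sides of the controls at 118 to 119 CPM (log2 fold change -0.11, SE 0.22). CCND3 lay at 12.4, 8.55 and 13.6 CPM, with shRNA 540 among the controls at 7.81 to 9.50 CPM (0.41, SE 0.34). The LYL1 knockdown and control libraries thus overlapped for both D-type cyclins. CCNE2 lay at 22.3, 25.2 and 19.7 CPM, around the controls at 21.1 to 23.4 CPM. CDK6 lay at 584, 777 and 794 CPM, against 705 to 748 CPM in the controls. CDK2 lay at 52.9, 61.5 and 63.9 CPM, against 59.5 to 66.2 CPM in the controls. The log2 fold changes of CCNE2, CDK6 and CDK2 were 0.00, -0.02 and -0.06, and their signs changed with the library left out. The library with shRNA 538 was the lowest of the LYL1 knockdowns for CCND2, CCNE1, CDK2, CDK4, CDK6 and CDKN1B, while LYL1 itself was lowest with shRNA 542.

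AE knockdown against LYL1 knockdown tests the difference between the knockdowns directly. CCND2 was the member called (1 of 9, lower), where 20.0% of all genes tested were called (10.5% higher and 9.46% lower). CCND2 and CCND3 had an unadjusted p below 0.05, as did 35.9% of all genes tested. The CCND2 mean was 55.7 ± 20.6 CPM with AE knockdown and 110 ± 13.6 CPM with LYL1 knockdown (SD, n = 3 each), with no overlap between the libraries (log2 difference -0.98, SE 0.23, edgeR adjusted p = 0.0147). The call was lost without LYL1 knockdown replicate 542 (adjusted p = 0.0546) and in a fit of only the 6 libraries compared (adjusted p = 0.0599). CCND3 lay higher in each AE knockdown library than in any LYL1 knockdown library (1.01, SE 0.34, adjusted p = 0.0573). Without AE knockdown replicate 3 the CCND3 difference was 0.43 (adjusted p = 0.182). CCND3 was called by DESeq2 (adjusted p = 0.0217), without the low-count filter, and without AE knockdown replicate 1 or 2. CCND2 and CDKN1B below, and CCND3 and CDKN2C above, were the members that did not overlap, 4 of 9, where 35.5% of all genes tested did not. For CCNE1 the difference was -0.11 (SE 0.26, adjusted p = 0.795), and for CDK4 0.36 (SE 0.16, adjusted p = 0.139, but 0.0218 without AE knockdown replicate 3).

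Levels between genes can be compared only per length, here as CPM per kb of merged exons (GENCODE 29, GRCh38), while the files were counted on hg19. On that scale the order with AE knockdown was CDK6 (46.8), CDKN2C (40.7), CDK4 (32.7), CDKN1B (29.7), CCNE1 (13.6), CDK2 (13.0), CCND2 (7.78), CCND3 (4.00), CCNE2 (3.51) and CCND1 (0.0213), and all neighbours overlapped between libraries except CDKN1B with CCNE1 and CCNE2 with CCND1. With LYL1 knockdown it was CDK6 (58.6), CDKN2C (35.9), CDKN1B (35.02), CDK4 (25.5), CCND2 (15.4), CDK2 (15.3), CCNE1 (14.7), CCNE2 (5.09), CCND3 (1.98) and CCND1 (0.0358), with overlaps between CDKN2C and CDKN1B and among CCND2, CDK2 and CCNE1. In the controls it was CDK6 (59.4), CDKN2C (45.5), CDKN1B (32.02), CDK4 (29.6), CCNE1 (21.0), CCND2 (16.6), CDK2 (16.0), CCNE2 (5.08), CCND3 (1.49) and CCND1 (0.0678), and of the neighbours only CDKN1B with CDK4 and CCND2 with CDK2 overlapped. CDK6 and CDKN2C thus led by mean in every group, though CDKN2C overlapped the next gene with either knockdown. CCND2 and CCND3 stood next to each other only in the means with AE knockdown, among neighbours that overlapped. The strand setting of the counting is not given in the sources used here, and 2 members share much exon sequence with a gene on the opposite strand. TSPAN31 (201 to 383 counts) covers 43.2% of the merged exons of CDK4, and INTS8 (1085 to 1973 counts) covers 37.0% of those of CCNE2, so the reads of these pairs may not be cleanly divided. For CCND2 the antisense gene CCND2-AS1 had 0 to 7 counts. AC008012.1, on the same strand, covers 13.8% of the merged exons of CCND2 and had 0 counts in every library. How reads in that shared stretch were assigned is not given.

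The genes most like CCND2 over the 9 libraries by Pearson correlation of log2 CPM were REEP1 (r = 0.991), DLG5 (r = 0.991) and FPR2 (r = 0.990). Those most like CCND3 were GTF2A2 (r = 0.988), HADHB (r = 0.985) and ATP8B4 (r = 0.983), and those most like CCNE1 were UBE2G2 (r = 0.975), SLC39A14 (r = 0.970) and POLE (r = 0.968). These r values describe 9 libraries that share their groups and the library that stood apart, and they carry no test.

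The wider G1/S pathway was read through 6 lists, whose counts with AE knockdown stand against 11.1% of all genes tested called higher, 10.2% called lower and 36.8% with an unadjusted p below 0.05. Among the other CDK inhibitors and pocket proteins, 2 fell and 1 rose of the 6 genes tested with AE knockdown (median log2 fold change -0.35, against 0.05 over all genes). CDKN1C, the CIP/KIP inhibitor p57, had 1, 1 and 0 counts with AE knockdown, 8, 39 and 28 counts with LYL1 knockdown and 30, 32 and 23 counts in the controls. It was nearly absent after AE knockdown: 2 counts against 85 in the controls, a ratio after scaling of 0.0229 with an exact 95% interval of 0.00273 to 0.0853 for counting error only. CDKN1C is 1 of the 2 genes counted as lower, but it passed the low-count filter only because of its level outside the AE knockdown libraries, so its call had to point that way and is not used as support. RB1, the pocket protein that the G1 kinases phosphorylate, lay at 122, 123 and 110 CPM with AE knockdown and at 172, 184 and 181 CPM in the controls (-0.60, adjusted p = 0.0116), a call lost without control replicate 2 or 3 (adjusted p up to 0.0595). Its relative RBL2 (p130), the pocket protein of resting cells, lay at 77.1, 78.2 and 121 CPM with AE knockdown and at 61.4, 58.0 and 56.4 CPM in the controls (0.65, adjusted p = 0.0251), a call lost without any one control (adjusted p up to 0.0937). RBL1 (-0.29, adjusted p = 0.233) did not pass. CDKN2B was at 0 counts in every library.

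Upstream of the members, 3 of 10 regulators of D-type cyclins and p27 fell with AE knockdown and 0 rose by edgeR (median -0.40), with 5 at an unadjusted p below 0.05 and 1 called higher by DESeq2. FOXO1 lay at 6.12, 6.76 and 7.07 CPM with AE knockdown and at 13.6, 12.7 and 13.5 CPM in the controls (-0.996, adjusted p = 0.00559). FOXO3 lay at 36.9, 35.6 and 27.8 CPM with AE knockdown and at 62.7, 62.5 and 60.2 CPM in the controls (-0.89, adjusted p = 0.00421). Both are forkhead factors known to activate CDKN1B, whose own level is given above, and both calls were kept when any single library was left out. STAT5A, a signal transducer of cytokine receptors, fell as well (-0.81, adjusted p = 0.0364), while STAT5B did not pass (-0.42, adjusted p = 0.0778). The STAT5A call was lost without any 1 control or without LYL1 knockdown replicate 538 or 540, libraries that share in the estimate of spread (adjusted p up to 0.109).

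Of 12 regulators of CDK activity and p27 turnover, 2 fell and 0 rose with AE knockdown by edgeR (median -0.11, 3 at an unadjusted p below 0.05, 0 higher by DESeq2). The share at an unadjusted p is below that over all genes. The called genes were CUL1, the scaffold of the ubiquitin ligase that marks p27 (-0.54, adjusted p = 0.0253), and HSP90AB1, a chaperone of CDK4 and CDK6 (-0.67, adjusted p = 0.0462). Of 10 E2F and DP factors 1 fell and 0 rose, with 5 at an unadjusted p below 0.05 (median -0.29), and the share called lower is near that of all genes. By DESeq2 2 fell and 0 rose, and 4 fell by limma-voom, without the low-count filter or without AE knockdown replicate 2. Without any 1 control 0 fell. Over all genes tested, 1978 and 1624 of 14741 fell by DESeq2 and limma-voom. Without the filter 2028 of 29826 did, and without AE knockdown replicate 2 1903 of 15033. TFDP1, a DP partner with which several E2F factors bind DNA, lay at 200, 168 and 145 CPM with AE knockdown and at 307, 300 and 274 CPM in the controls (-0.78, adjusted p = 0.0172). E2F1 (-0.61, adjusted p = 0.0828), E2F2 (-0.68, adjusted p = 0.0905) and E2F8 (-0.59, adjusted p = 0.0734) did not pass. The CUL1 and TFDP1 calls did not hold without control replicate 1, 2 or 3 (highest adjusted p 0.0895 and 0.0690), nor that of CUL1 without AE knockdown replicate 1. The HSP90AB1 call was lost without any 1 control, any 1 LYL1 knockdown library or AE knockdown replicate 1 (adjusted p up to 0.141).

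Downstream, 2 of 18 E2F targets of S phase entry fell and 0 rose (median -0.52, 17 of 18 negative), with 7 at an unadjusted p below 0.05 and 0 higher by DESeq2. By edgeR, both shares are near those over all genes, 10.2% and 36.8%. In 10 of the 18 every AE knockdown library lay below every control, where 22.2% of all genes tested did so. The called pair was CCNA2, the cyclin of S phase (-0.52, adjusted p = 0.0357), and POLA1, a replicative polymerase subunit (-0.56, adjusted p = 0.0494), and their calls were lost without any 1 control, AE knockdown replicate 1 or 3, or LYL1 knockdown replicate 540 (adjusted p up to 0.115 and 0.150), that of POLA1 also without LYL1 knockdown replicate 538 or 542. This count moved widely with the setting. It was 6 in DESeq2, 9 in limma-voom, 10 without the low-count filter and 12 without AE knockdown replicate 2. Over all genes tested, 1978 and 1624 of 14741 were called lower in DESeq2 and limma-voom. Without the filter 2028 of 29826 were, and without AE knockdown replicate 2 1903 of 15033. The E2F target count was 0 without AE knockdown replicate 3, any 1 control or LYL1 knockdown replicate 540. It was also 0 with scaling by library size only, in the 6 libraries compared and with a replicate block. The summed level of the list was 3738, 4511 and 2574 CPM with AE knockdown, 4197, 4122 and 4116 CPM with LYL1 knockdown, and 4718 to 4800 CPM in the controls. Replicate 3 was again the lowest and replicate 2 the nearest to the controls, as for CCND2, CCNE1 and CCNE2. Of 10 genes of G2 and M phase 3 fell and 0 rose by edgeR and DESeq2 (median -0.25, 4 at an unadjusted p below 0.05): the proliferation marker MKI67 (-0.97, adjusted p = 0.0170), the mitotic kinase PLK1 (-0.81, adjusted p = 0.0212) and the topoisomerase TOP2A (-0.67, adjusted p = 0.0138). These 3 calls were lost without any 1 control (adjusted p up to 0.0651, 0.0763 and 0.0609). The count was 5 without AE knockdown replicate 2, where 1903 of 15033 genes tested were called lower.

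**Figure D4:**
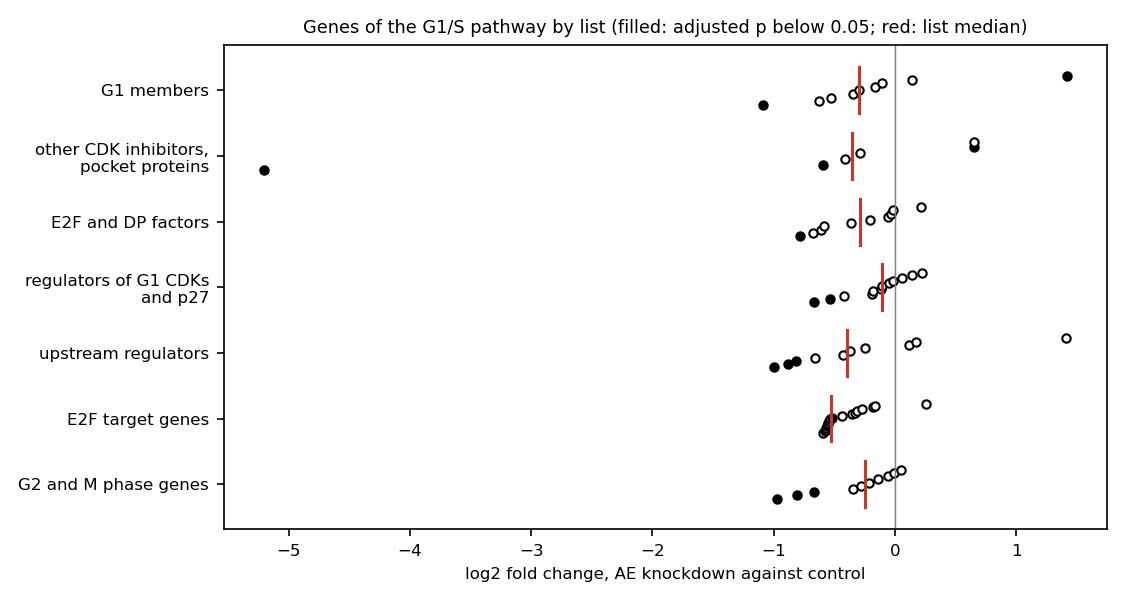
Log2 fold change with AE knockdown against control of each tested gene (points, spread vertically for visibility) in the members and in 6 lists of the G1/S pathway; filled points have an edgeR adjusted p below 0.05, and the red bar is the list's median. The medians ran from -0.52 (E2F targets) to -0.11 (regulators of CDKs and p27), and the point at -5.20 is CDKN1C.

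With LYL1 knockdown edgeR called 0 genes in each of the 6 lists, as did DESeq2 and limma-voom. Over all genes tested edgeR called 0.0136%. An unadjusted p below 0.05 was found for 4.66% of all genes tested. In the lists it was found for 0 of 6 other inhibitors and pocket proteins and 1 of 10 E2F and DP factors. The counts were 0 of 12 regulators of CDKs and p27 and 1 of 18 E2F targets. For genes of G2 and M phase and upstream regulators they were 0 of 10 and 2 of 10. The median of the E2F targets was -0.20, with 16 of 18 negative and 8 of 18 with every LYL1 knockdown library below every control, where 8.17% of all genes tested did so. The other medians lay between -0.11 and 0.01. Between the knockdowns, edgeR called 2 of 6 other inhibitors and pocket proteins and 1 of 18 E2F targets. It also called 1 of 10 genes of G2 and M phase and 3 of 10 upstream regulators. All were lower with AE knockdown than with LYL1 knockdown, where 9.46% of all genes were called lower. The 2 inhibitors and pocket proteins were RB1 and CDKN1C, and CDKN1C is again not used as support because of how it passed the filter. The count was 0 of 12 regulators of CDKs and p27 and 0 of 10 E2F and DP factors. In these last lists 3 of 12 and 2 of 10 genes had an unadjusted p below 0.05, against 35.9% of all genes tested. DESeq2 called 1 and 0 of them, and 3748 of all 14741 genes.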

How the data were processed

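The authors deposited 1 table of raw read counts per library, as whole numbers per gene symbol not normalised. The submitters' processing notes list hg19 as the genome build and the tools featureCounts 2.0.1, SAMtools 1.7, HISAT2 2.2.0, fastp 0.20.1 and DESeq2 1.26.0, without saying what each did. The annotation, the strand setting and the handling of reads that map to several places are not given in the sources used here. A decimal suffix on 5 gene names, present in 6 of the files, was removed.

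Genes were kept with filterByExpr by group (14741 of 59648), libraries scaled with TMM, and groups tested with edgeR 4.0.16 (R 4.3.3) by its quasi-likelihood F test, with robust dispersions and 1 mean per group over all 9 libraries. Benjamini-Hochberg adjustment ran over all genes tested, with a call at an adjusted p below 0.05. Each SE is the log2 fold change divided by the square root of F. CPM values use the same scaling. The median SE over all genes was 0.23. The fit was tested on simulated data with 200 changed genes. These simulated data had the same spread in every group and no library that stood apart, so they do not cover that feature of the real libraries. Ratios were taken after adding 0.5 counts.

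The members, the 6 pathway lists and the 5 marker lists were chosen with earlier results of these data known. Named were the members, the knockdown targets, up to 4 genes per list with the smallest adjusted p in AE knockdown against control, and the 3 genes most correlated with each of 3 members. Marker genes, overlapping genes and CDKN2B were named after their values were seen. The alternatives tried were scaling by library size only, by upper quartiles or by median-of-ratios, no low-count filter, DESeq2 1.42.0, limma-voom with a spread per group (limma 3.58.1), fits of only the 6 libraries compared, a replicate block, other pseudocounts (0 and 5), and leaving out each library. Both comparisons with control share the 3 control libraries.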

Additional observations from a re-analysis of the deposited data

Results flagged for a closer look

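CCND2 was flagged because it was called in AE knockdown against LYL1 knockdown, so the values below are those behind the flag. Its log2 difference between AE knockdown and LYL1 knockdown was -0.98 (SE 0.23, edgeR adjusted p = 0.0147), with 55.7 ± 20.6 CPM after AE knockdown and 110 ± 13.6 CPM after LYL1 knockdown (SD, n = 3 each). It was lower in 3 of 3 AE knockdown libraries than in any LYL1 knockdown library. The adjusted p was 0.0546 without LYL1 knockdown replicate 542, and the call was also lost in a fit of only the 6 libraries compared.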

How the results depend on the processing

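The number of members called with AE knockdown against control was 2, but 3 without the low-count filter and in limma-voom (CCNE1 being added in both), and 1 to 4 with a library left out. With AE knockdown against LYL1 knockdown it was 1, but 2 without the low-count filter and in DESeq2, 0 in a fit of only the 6 libraries compared, and 0 to 3 with a library left out. With LYL1 knockdown against control it was 0 in every setting. Over 441 alternative values of the 9 members in 3 comparisons, 414 kept their direction and side of the threshold, 10 passed newly, 6 no longer passed and 11 changed sign. Of the members that changed sign, CCNE2 with LYL1 knockdown was -0.0027 with median-of-ratios scaling, -0.0158 without the filter and -0.0029 in DESeq2, and between -0.0906 and 0.0908 with a library left out. With a library left out, CDK6 lay between -0.0942 and 0.109 and CDK2 between -0.12 and 0.0122 with LYL1 knockdown against control, and CCNE1 between -0.34 and 0.167 with AE knockdown against LYL1 knockdown. Of the knockdown targets, which are not among the 441 values, RUNX1T1 with LYL1 knockdown was 0.0058 scaled by library size only and 0.0079 with upper-quartile scaling, and between -0.17 and 0.0932 with a library left out, while RUNX1 with LYL1 knockdown lay between -0.0302 and 0.276 with a library left out. The log2 ratio of CCND2 to CCND3 differed by -2.89 to -1.73 with AE knockdown and by -0.68 to -0.36 with LYL1 knockdown when a library was left out, and that of CDK6 to CDK4 by -0.65 to -0.43 and by 0.15 to 0.24. The causes were not tested.

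With the replicate number as a block, the members called with AE knockdown against control were 1 (CCND2, adjusted p = 0.0373), while CCND3 had an adjusted p of 0.0609 and 1439 genes were called in all. The labels do not say whether the numbers pair the libraries. Deviations of same-numbered AE knockdown and control libraries correlated at -0.0135 to 0.0416, with 0 of 3 pairs above 0.1. Those of differently numbered libraries correlated at -0.0470 to 0.0317. With 3 libraries a group, and AE knockdown replicate 3 standing apart, these values cannot decide whether the numbers pair. LYL1 shRNA numbers match no control number.

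Over all genes, the calls with AE knockdown against control were 3134, but 1019, 869 and 947 without control replicate 1, 2 or 3, and up to 4135 without AE knockdown replicate 2. Upper-quartile scaling called 1894 higher and 1316 lower, against 1633 and 1501 with TMM. With LYL1 knockdown against control they were 2, but 5 scaled by library size only, 128 without the filter, 30 in DESeq2, 26 in limma-voom, 15 in the 6 libraries compared and 1 to 11 with a library left out. Between the knockdowns they were 2941, but 1710 in limma-voom, 823 in the 6 libraries compared and 1356 to 3917 with a library left out. At 3 libraries a group and these depths, the filter left CCND1 untested, and the spread between AE knockdown libraries limits what can be called.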
